A study of Mus musculus with 16 samples.

Results

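The chromosome 6 flanks of the Cdca3 promoter are the parts of the mouse genome that lie on either side of a stretch of 3.05 Mb taken to hold the Cdca3/Usp5 promoter. The stretch runs from 122734331 to 125781765 (mm9). The flanks run from 114.0 Mb to its centromeric end and from its telomeric end to 134.3 Mb, and are 8.73 and 8.52 Mb long. The flanks are set by position, with inner edges at the ends of a stretch in which no Cdca3 library listed a site. Of 327988 sites listed in 16 libraries, 13077 lie in the flanks. Merging listed intervals that overlap or touch gave 2250 distinct positions there, of 15209 on chromosome 6.

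The libraries are circular chromosome conformation capture (4C-seq) libraries of mouse embryonic fibroblasts, primary cells grown from E13.5 embryos and taken while proliferating at passage 4. Rb1L/L cells carry the Rb1L allele on both copies of Rb1, and Rb1+/+ cells carry the intact gene. Each genotype has 4 cultures, numbered as pairs, and each culture has a library from the Cdca3/Usp5 promoter and one from the Pole/Pxmp2 promoter. The allele is present in every cell of the culture and of the embryo it came from, and cell type could not be checked, because the files hold no expression. What a pair shares is not given in the labels, so the p-values below measure the spread between these cultures.

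In 4C-seq, chromatin is crosslinked, cut and ligated, and the DNA joined to a chosen locus, the viewpoint, is amplified outward from it and sequenced. Contacts on the viewpoint's own chromosome (cis) usually thin out with distance, and contacts with other chromosomes (trans) are sparser. pRb, the product of Rb1, restrains the passage of cells into S phase. The L allele, as described elsewhere, changes the pocket through which pRb binds partners that carry an LXCXE motif. The title of the series names condensin II, a complex that compacts chromosomes, as recruited to promoters by pRb. The comparison of genotypes therefore asks whether the surroundings of the Cdca3 promoter differ in Rb1L/L cells. For Cdca3 libraries the flanks are the cis neighbourhood of the viewpoint, and for Pole libraries, whose viewpoint is on chromosome 5, they are a trans target.

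Cdca3 encodes an F-box-like protein that promotes entry into mitosis, and Usp5 encodes an enzyme that takes apart free ubiquitin chains. In the gene order of a later annotation, Eno2, Lrrc23, Spsb2 and Tpi1 precede Usp5 and Cdca3, and Gnb3, P3h3, Gpr162, Cd4 and Lag3 follow. The promoter is shown because the viewpoint of the Cdca3 libraries is named after it. Where the viewpoint lies relative to these bases is not given. The 300 bases are from RefSeq on the plus strand of GRCm38.p6 (chr6:124829926-124830225). These coordinates were not converted to mm9, so they are not set against the positions used elsewhere. Capitals mark CATG, the site of NlaIII, the second enzyme, and TTTGAA, the letters of the cell cycle homology region found in many genes of late cell cycle.

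Cdca3 promoter: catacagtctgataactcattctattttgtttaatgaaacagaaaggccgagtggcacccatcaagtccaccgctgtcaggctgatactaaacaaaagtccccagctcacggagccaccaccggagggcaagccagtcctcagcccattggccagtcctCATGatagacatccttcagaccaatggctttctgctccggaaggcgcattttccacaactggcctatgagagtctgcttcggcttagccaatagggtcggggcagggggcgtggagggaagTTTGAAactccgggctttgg

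AAGCTT, the site of HindIII, the first enzyme, did not occur in these 300 bases and occurred in 7.45% of 32851 mouse promoters of that length in the same table. CATG occurred in 61.1% of those promoters. TTTGAA occurred in 17.9%, counting both strands. The searches overlapped at no letter in the Cdca3 promoter. A match describes letters and is not a mapped site.

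The Cdca3 promoter's lists were dense on both sides of the stretch, and the genotypes did not differ detectably in how many sites they listed. The Rb1L/L libraries listed 1228, 1641, 1709 and 1533 flank sites (replicates 1 to 4), against 1333, 1462, 1920 and 1821 in the Rb1+/+ libraries. The ranges overlap, and replicate 1 is the lowest in both genotypes. The means were 1528 ± 213 and 1634 ± 281 (SD, n = 4 each), a difference of -106 sites (exact permutation p = 0.543, adjusted p = 0.921 over 10 genotype comparisons, lower in 3 of 4 pairs). It was -6.33 when Rb1L/L replicate 1 was left out and -207 when Rb1+/+ replicate 1 was, and in the inner 5 Mb it was -6. The 95% interval runs from -692 to 376, so differences within that range, in either direction, are not excluded. The lists give no read counts, so depth is unknown, and list length stands in for it: Cdca3 libraries listed 15802 to 39650 sites in all and Pole libraries 6485 to 17522.

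Flank sites made up 19.3% ± 2.78 of the chromosome 6 sites in Rb1L/L and 20.7% ± 0.906 in Rb1+/+ libraries (SD, n = 4 each). This amounts to -1.44 percentage points (exact permutation p = 0.371, 95% interval -4.55 to 3.85). The Rb1L/L mean is held up by replicate 1, at 23.3%, the shortest Cdca3 list. The other Rb1L/L libraries lie between 17.1% and 18.5%, below the lowest Rb1+/+ library at 19.5%. Setting replicate 1 apart was a choice made after its value was seen. Without it the difference was -2.80 points (exact permutation p = 0.0571), and at equal list length with all libraries it was -0.282 points (exact permutation p = 0.8). Neither passed. Called regions, the stretches that the authors deposited as significant, covered 50.6% ± 3.96 and 52.1% ± 3.00 of the flanks in Rb1L/L and Rb1+/+ libraries (difference -1.51 points, exact permutation p = 0.6, 95% interval -9.39 to 6.57).

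**Figure D1:**
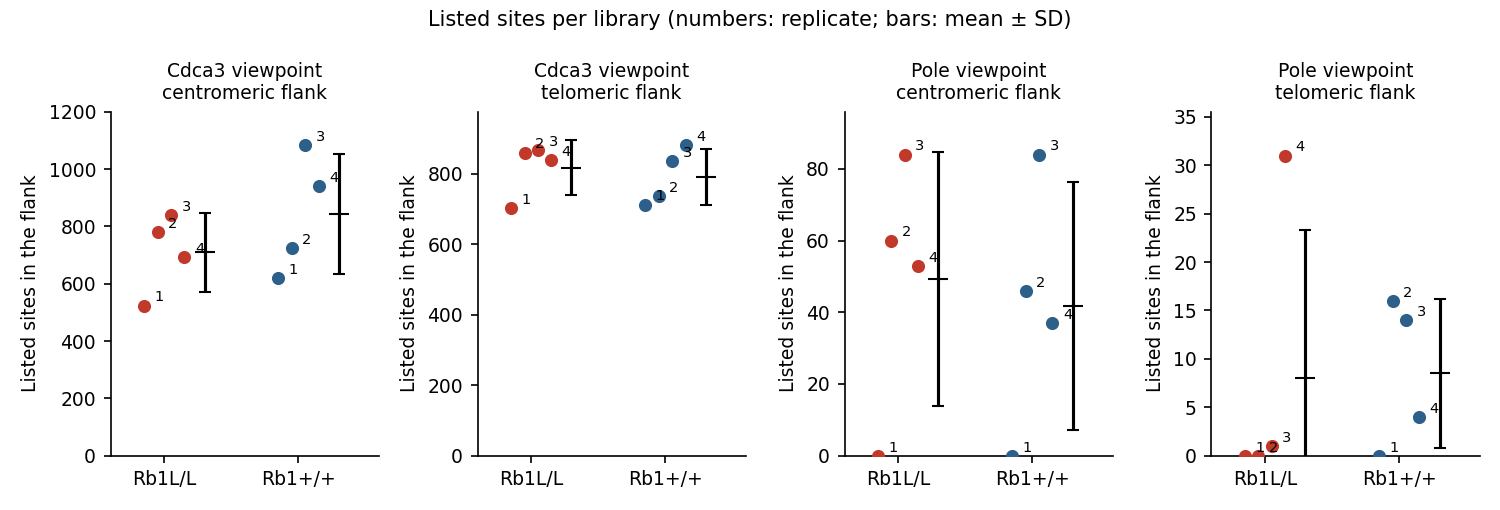
Listed sites in each flank (vertical axis, starting at 0) for each library, with Rb1L/L left of Rb1+/+. Points are libraries with their replicate number and bars are means ± SD of 4. Cdca3 libraries list 524 to 1084 centromeric and 704 to 881 telomeric sites with overlapping genotypes, and both Pole libraries of replicate 1 list none.

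Cdca3 libraries listed 91.6 ± 13.8 sites per Mb in the flanks and 60.5 ± 12.5 in the 40 Mb of chromosome 6 beside the centromeric flank (SD, n = 8). The flanks leave out the stretch without Cdca3 sites, so this is a description with no test. With the stretch counted in, the density was 77.9 ± 11.7 sites per Mb, above that of the 40 Mb in 8 of 8 libraries. In Pole libraries the flanks held 3.12 ± 2.18 and the 40 Mb held 3.35 ± 1.79 sites per Mb, and the flanks were higher in 3 of 8. Other parts of chromosome 6 were not set against the flanks in this way, and the comparison was added after the values were seen.

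Telomeric of the stretch, sites were densest next to it and thinned out steadily. Over the 8 Cdca3 libraries the first Mb held 292 ± 20.4 sites, the second 236 ± 13.7 and the third 162 ± 8.57 (SD, n = 8). The fourth held 35.4 ± 28.3. From 4 to 8 Mb, 5 sites of Rb1L/L replicate 2 were the only ones, and the last part, from 8 Mb to the end of the flank, held 80.4 ± 6.80. The spread in the first 3 Mb is small beside the level, and Rb1L/L and Rb1+/+ means there differ by less than 1 SD.

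Centromeric of the stretch the order was different. The first Mb held 58.9 ± 24.2 sites, the second 99.8 ± 10.9, the third 249 ± 23.8 and the fourth 168 ± 56.5 (SD, n = 8). Sites then fell away to 22.6 ± 19.0 and 3.75 ± 10.6 in the next 2 Mb, and came back to 56.9 ± 41.1 and 113.9 ± 47.2 in the 2 after those. The peak on this side thus lies 2 to 3 Mb away and not at the edge. Distances are from the edge of the stretch, and the place of the promoter within its 3.05 Mb is not marked in the files.

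**Figure D2:**
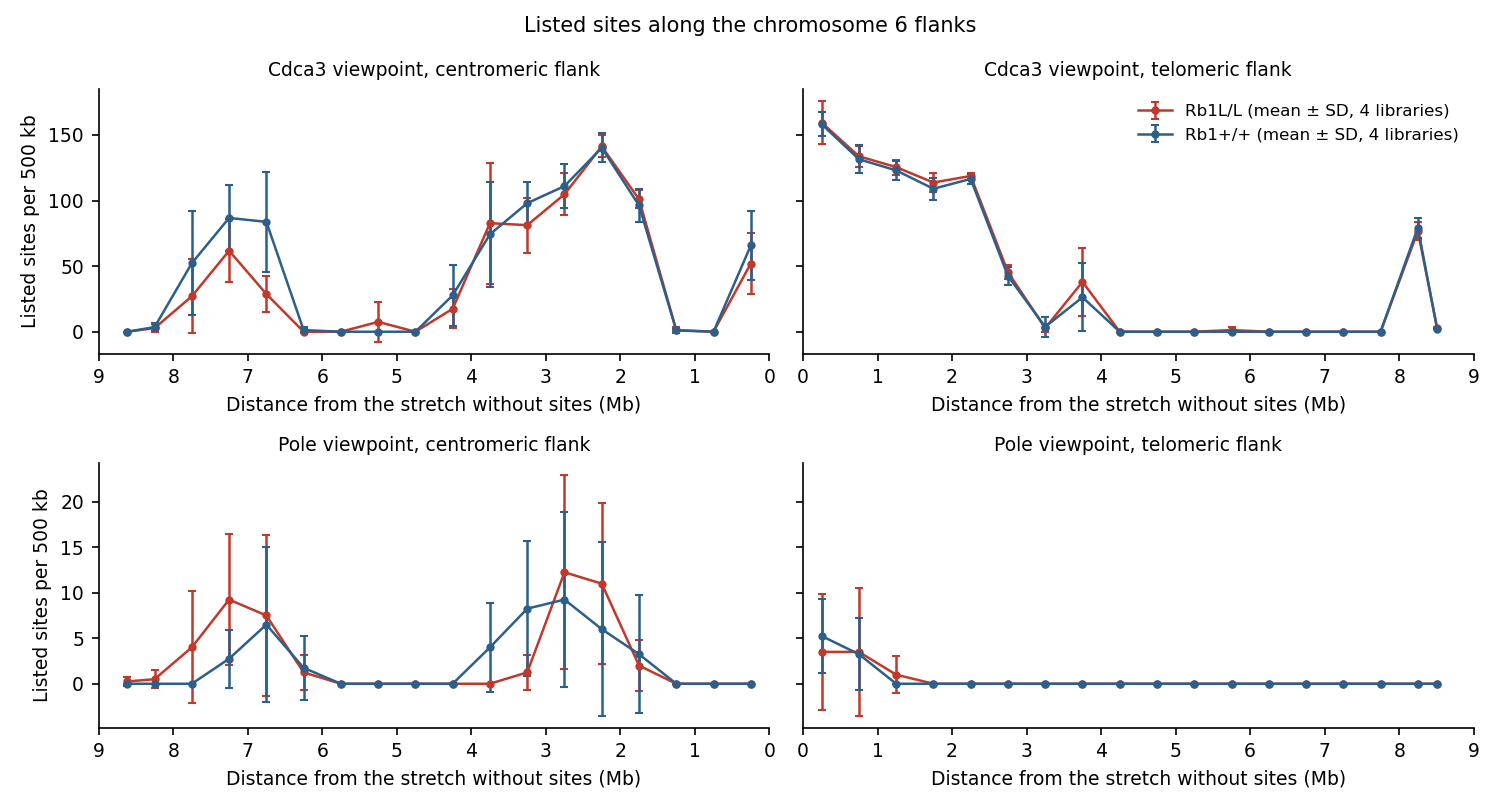
Listed sites per 500 kb against distance from the stretch in Mb, centromeric flank left and telomeric flank right, for the Cdca3 (top) and Pole (bottom) viewpoints. Points and bars are mean ± SD of 4 libraries, Rb1L/L red and Rb1+/+ blue. The telomeric Cdca3 curve falls from its first point, and the centromeric one peaks between 2 and 3 Mb and again between 6 and 8 Mb.

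Whether the sides differed in Cdca3 libraries depended on the setting. The centromeric flank held 88.8 ± 20.4 and the telomeric flank 94.5 ± 8.68 sites per Mb (SD, n = 8), a difference of -5.70 (exact sign-flip permutation p = 0.320, 95% interval -17.7 to 8.11, lower in 6 of 8 libraries). Restricting the lists to deposited values under 0.01 gave -26.5 (exact p = 0.0156), the inner 5 Mb gave -25.2 (exact p = 0.0156) and lists of equal length gave -54.3 (exact p = 0.00781, the smallest that 8 libraries allow). Leaving out Rb1+/+ replicate 3, which lists 1084 centromeric sites, gave -10.2 (exact p = 0.0469). Both flanks start at edges taken from these same Cdca3 lists, and the promoter's place between the edges is not marked. Equal distances from the edges may thus be unequal distances from the promoter, and the p-values depend on how the flanks were drawn.

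The deposited p-value or q-value, used within each list to rank its sites, was lower on the telomeric side in all 8 Cdca3 libraries. Its median there ran from 2.08e-10 to 2.33e-06, against 0.000896 to 0.00382 on the centromeric side. The rest of chromosome 6 lay between them, at 1.31e-05 to 9.29e-05. Sites listed at exactly 0 were rare in the flanks. They numbered 0 to 79 per library on the telomeric side and 0 on the centromeric side, of 333 to 816 on chromosome 6.

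The same telomeric positions were listed again and again. Of 947 telomeric positions listed by the Cdca3 viewpoint, 538 (56.8%) were in all 8 libraries, and 39 (4.12%) were in 1. Of 1281 centromeric positions, 290 (22.6%) were in all 8 and 207 (16.2%) in 1. For both flanks together 828 of 2228 positions (37.2%) recurred in all 8, against 1681 of 12510 (13.4%) on the rest of chromosome 6. Dense parts have more neighbours that pass together, and these shares were not corrected for density. Within the flanks, 2 Rb1L/L or 2 Rb1+/+ libraries shared 70.2% ± 6.21 of the positions that either listed (12 library pairs). Libraries of different genotype and pair number shared 69.4% ± 6.49 (12 library pairs), and those of different genotype and the same number 73.5% ± 3.91 (4 library pairs).

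Merged over the 8 Cdca3 libraries, the called regions fall into separate blocks with empty ground between them. The block next to the stretch on the telomeric side runs from 125.63 to 128.66 Mb. It held 631, 720, 725 and 711 flank sites in Rb1L/L libraries, against 631, 660, 703 and 729 in Rb1+/+ libraries, and the lowest value of both genotypes is the same. Of its 762 positions 495 (65.0%) were listed in all 8 libraries. The windows with the most sites in either flank are here. From 126.0 to 126.5 Mb there were 138, 154, 158 and 155 sites in Rb1L/L, against 140, 141, 158 and 157 in Rb1+/+ libraries. Per 1000 chromosome 6 sites its log2 fold change was 0.00045 ± 0.16 (SE, limma, 95% interval -0.36 to 0.36). In the next window, 126.5 to 127.0 Mb, the log2 fold change was -0.01 ± 0.17 (SE).

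A smaller telomeric block, from 129.05 to 129.65 Mb, varied from library to library. It held 0, 47, 64 and 52 sites in Rb1L/L libraries, against 1, 7, 44 and 68 in Rb1+/+ libraries. Both libraries of replicate 1 are at or near 0 there, and none of its 80 positions was in all 8 lists. Beyond it lies ground without a site in any of the 16 libraries, from 129.49 to 131.32 Mb and from 131.35 to 133.92 Mb. The block at the far end, from 133.73 to 136.13 Mb, crosses the flank's end. Its part inside the flank held 73, 89, 80 and 76 sites in Rb1L/L, against 81, 71, 89 and 84 in Rb1+/+ libraries, with no genotype standing apart.

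On the centromeric side the largest block runs from 118.26 to 121.42 Mb. It held 373, 583, 583 and 580 sites in Rb1L/L libraries, against 409, 525, 672 and 588 in Rb1+/+ libraries, so replicate 1 is lowest in both. Its window from 120.5 to 121.0 Mb, the third by number of sites, held 124, 136, 133 and 133 in Rb1L/L, against 122, 125, 138 and 136 in Rb1+/+ libraries (log2 fold change -0.01 ± 0.18, SE, limma). A small block at the edge of the stretch, from 122.19 to 122.93 Mb, held 39, 69, 74 and 26 sites in Rb1L/L, against 67, 30, 93 and 74 in Rb1+/+ libraries. Between these blocks no library listed a site from 121.24 to 122.32 Mb.

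**Figure D3:**
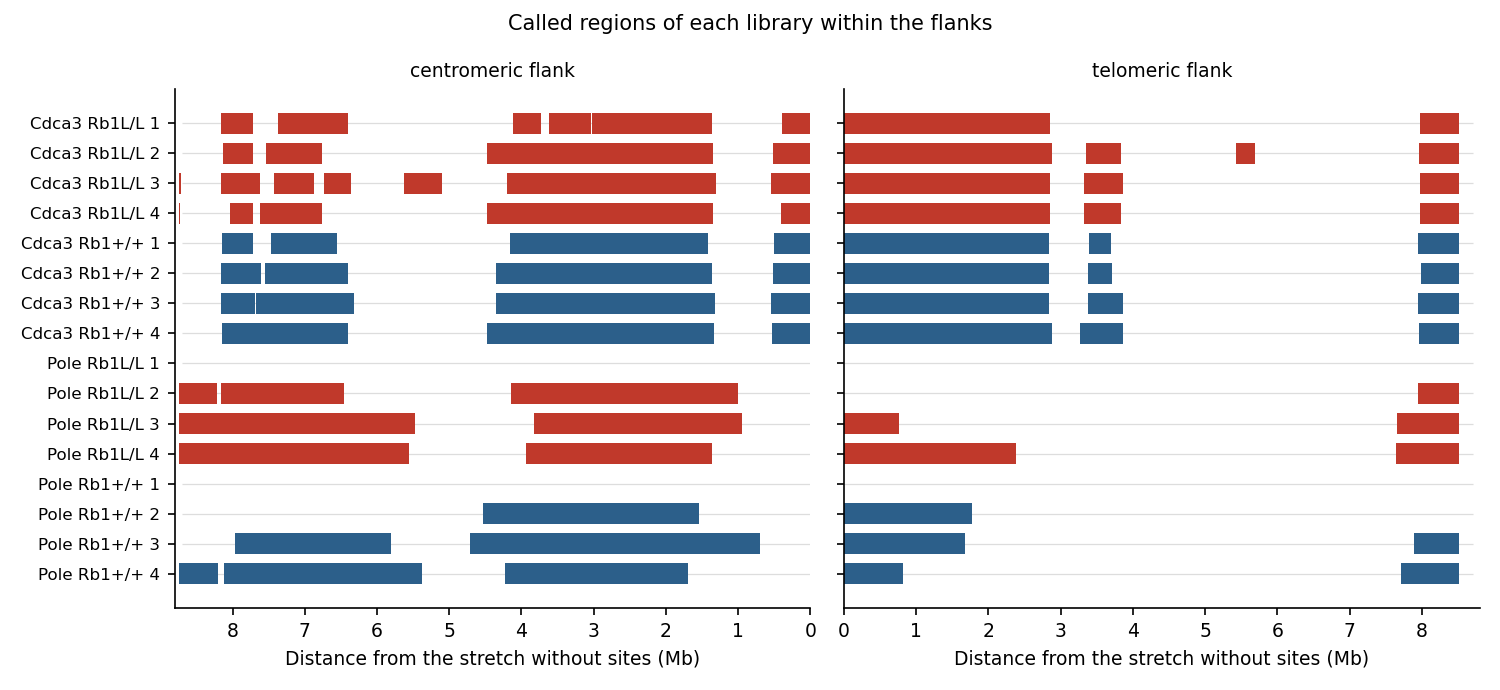
Called regions of the 16 libraries (rows, Rb1L/L red and above Rb1+/+ blue within each viewpoint, replicate number at the end of each label) along the flanks, against distance from the stretch in Mb. Most blocks recur in all 8 Cdca3 rows, while those from 117.10 to 117.64 and from 131.21 to 131.47 Mb are in 1 row each and that from 129.05 to 129.65 Mb is in 7, and the Pole rows hold 0 to 5 regions each, mostly over the same places.

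Of the genotype comparisons, the share of flank sites close to the stretch had the smallest p, and it did not pass after adjustment. Of the flank sites, 84.9%, 84.9%, 84.0% and 87.1% lay within 4 Mb of the stretch in Rb1L/L libraries, against 83.1%, 80.8%, 76.0% and 79.1% in Rb1+/+ libraries. All 4 Rb1L/L values lie above all 4 Rb1+/+ values. The means were 85.2% ± 1.32 and 79.8% ± 3.00 (SD, n = 4 each), a difference of 5.46 points (95% interval 0.846 to 11.1, higher in 4 of 4 pairs). The exact permutation p was 0.0286, the smallest that 4 against 4 allow, and 0.286 after adjustment over the 10 genotype comparisons. A single comparison at this smallest p cannot pass that adjustment, so the adjusted p could not decide the question. With the same number of sites taken from each library it was 3.24 points (exact permutation p = 0.171), with near meaning 2 Mb it was 2.87 (exact p = 0.257), and over the inner 5 Mb of each flank it was 0.752 (exact p = 0.457).

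The sites beyond 4 Mb that set this share lie mostly in the block from 114.57 to 116.42 Mb, far on the centromeric side. It held 112, 128, 153 and 88 sites in Rb1L/L libraries, against 144, 169, 319 and 278 in Rb1+/+ libraries. Per 1000 chromosome 6 sites that is 21.3, 13.3, 16.3 and 10.6 in Rb1L/L, against 23.3, 24.4, 34.2 and 29.7 in Rb1+/+ libraries. On this scale the highest Rb1L/L value lies below the lowest Rb1+/+ value, while the site numbers themselves overlap. The block was singled out after its values were seen and gets no test. It is sparse and variable: 18 of its 412 positions (4.37%) were in all 8 lists. The longest lists of all, Rb1L/L replicates 2 and 3 at 39650 and 37263 sites, are those with 128 and 153 sites there. The Rb1+/+ lists with 319 and 278 sites, replicates 3 and 4, are 27478 and 30820 sites long. Whether list length bears on the numbers in this block was not tested.

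Positions listed in 4 of 4 Rb1+/+ and 0 of 4 Rb1L/L Cdca3 libraries numbered 4 of 2228 in the flanks (0.18%), where 0.109% of 14738 positions on all of chromosome 6 met this rule. The 3 nearest to the stretch start at 116058754, 115996169 and 115989411 (mm9), and all 4 lie in that far block. Positions in 4 of 4 Rb1L/L and 0 of 4 Rb1+/+ libraries numbered 0 in the flanks, against 0.136% of chromosome 6. With so few positions this is not a result about the flanks, and the 4 are among the sites already counted in that block.

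**Figure D4:**
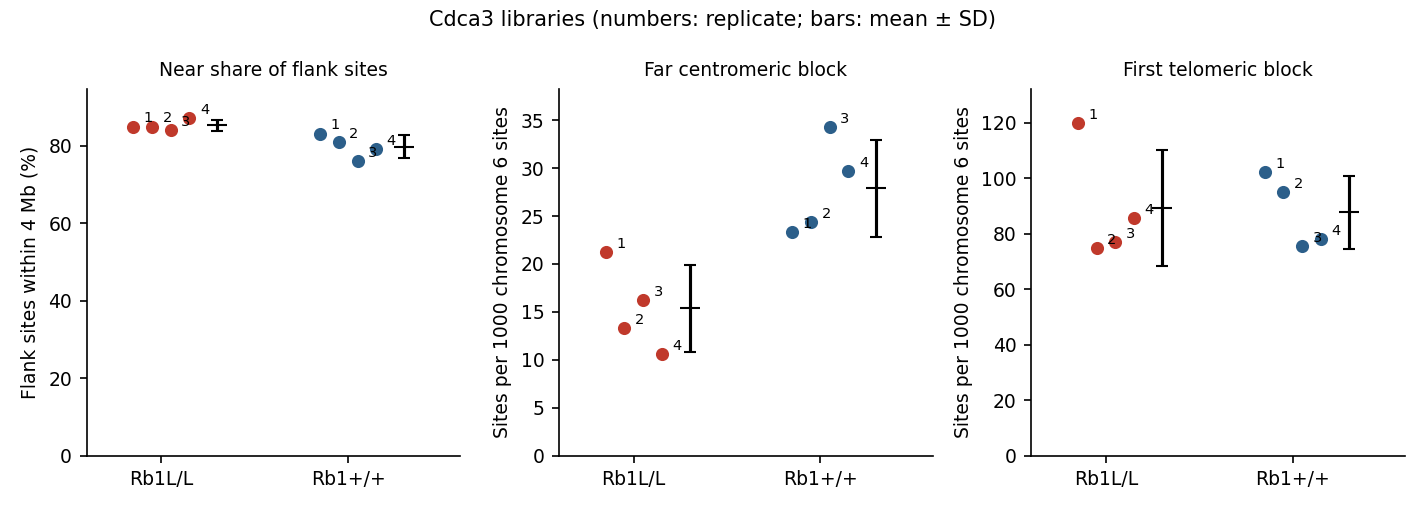
Cdca3 libraries, Rb1L/L left of Rb1+/+: the share of flank sites within 4 Mb of the stretch (%), and sites per 1000 chromosome 6 sites in the far centromeric block and in the first telomeric block. Points are libraries with replicate numbers and bars are means ± SD of 4. The genotypes do not overlap in the first 2 panels and overlap in the third.

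The centromeric share of flank sites ran the same way, without passing. It was 42.7%, 47.5%, 49.2% and 45.3% in Rb1L/L libraries, against 46.5%, 49.5%, 56.5% and 51.6% in Rb1+/+ libraries, and the ranges overlap. The means were 46.2% ± 2.82 and 51.0% ± 4.18 (SD, n = 4 each), a difference of -4.87 points (exact permutation p = 0.114, adjusted p = 0.571, 95% interval -13.8 to 2.64). It was -10.4 at equal list length, -2.30 in the inner 5 Mb and -3.06 without Rb1+/+ replicate 3, none of which passed. In the main setting it was lower in Rb1L/L in 4 of 4 pairs.

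No window passed the test for a genotype difference. On log2 of sites plus 0.5 per 1000 chromosome 6 sites, limma called 0 of 161 windows of 500 kb in Cdca3 libraries (0% called), 24 of them in the flanks, with a smallest adjusted p of 0.955. Without adjustment 4 windows had p under 0.05, and 1 of them was in the flanks, where it was lower in Rb1L/L. Windows lower at that p made up 0.621% of all 161. With the replicate number as a block these counts were 9 and 4, and without Rb1L/L replicate 1 they were 9 and 3 (smallest adjusted p = 0.366). Of the 24 flank windows 14 (58.3%) were lower in Rb1L/L, against 55.9% of all 161, and 10 (41.7%) higher, against 44.1%, and their median log2 fold change was -0.01, against -0.02 over all. A share this near to that of the chromosome is not a result about the flanks. It also turns with the scaling: 19 of 24 were lower per 1000 sites of the whole library, which moves the median of all windows to -0.17, and 9 of 24 without scaling.

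The flank window with the smallest p was that from 119.5 to 120.0 Mb. It held 9.69, 12.6, 9.68 and 11.1 sites per 1000 in Rb1L/L libraries, against 14.6, 16.4, 13.8 and 12.9 in Rb1+/+ libraries, and the groups do not overlap, as in 1.24% of the 161 windows in this direction. In the opposite direction 2.48% of the 161 were apart, and none of them was in the flanks. The log2 fold change was -0.43 ± 0.15 (SE, limma, adjusted p = 0.955). The site numbers themselves do overlap, at 51, 121, 91 and 92 in Rb1L/L, against 90, 114, 129 and 121 in Rb1+/+ libraries. The next in this direction belong to the far block, from 115.5 to 116.0 Mb (log2 fold change -0.73 ± 0.36) and from 115.0 to 115.5 Mb (-2.25 ± 1.14, SE, limma, adjusted p = 0.955 for both).

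Among windows higher in Rb1L/L, none in the flanks had an unadjusted p under 0.05, against 1.86% of all 161. From 128.5 to 129.0 Mb there were 3, 7, 5 and 3 sites in Rb1L/L, against 0, 2, 0 and 7 in Rb1+/+ libraries (log2 fold change 1.67 ± 1.41, SE, limma). That from 117.0 to 117.5 Mb rests on Rb1L/L replicate 3 alone, which listed 30 sites where the other 7 libraries listed 0. From 121.0 to 121.5 Mb the log2 fold change was 0.17 ± 0.32 (SE). Of the 36 windows that overlap a flank, 11 held no site in any Cdca3 library, and 7 of these lie between 129.5 and 133.5 Mb.

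**Figure D5:**
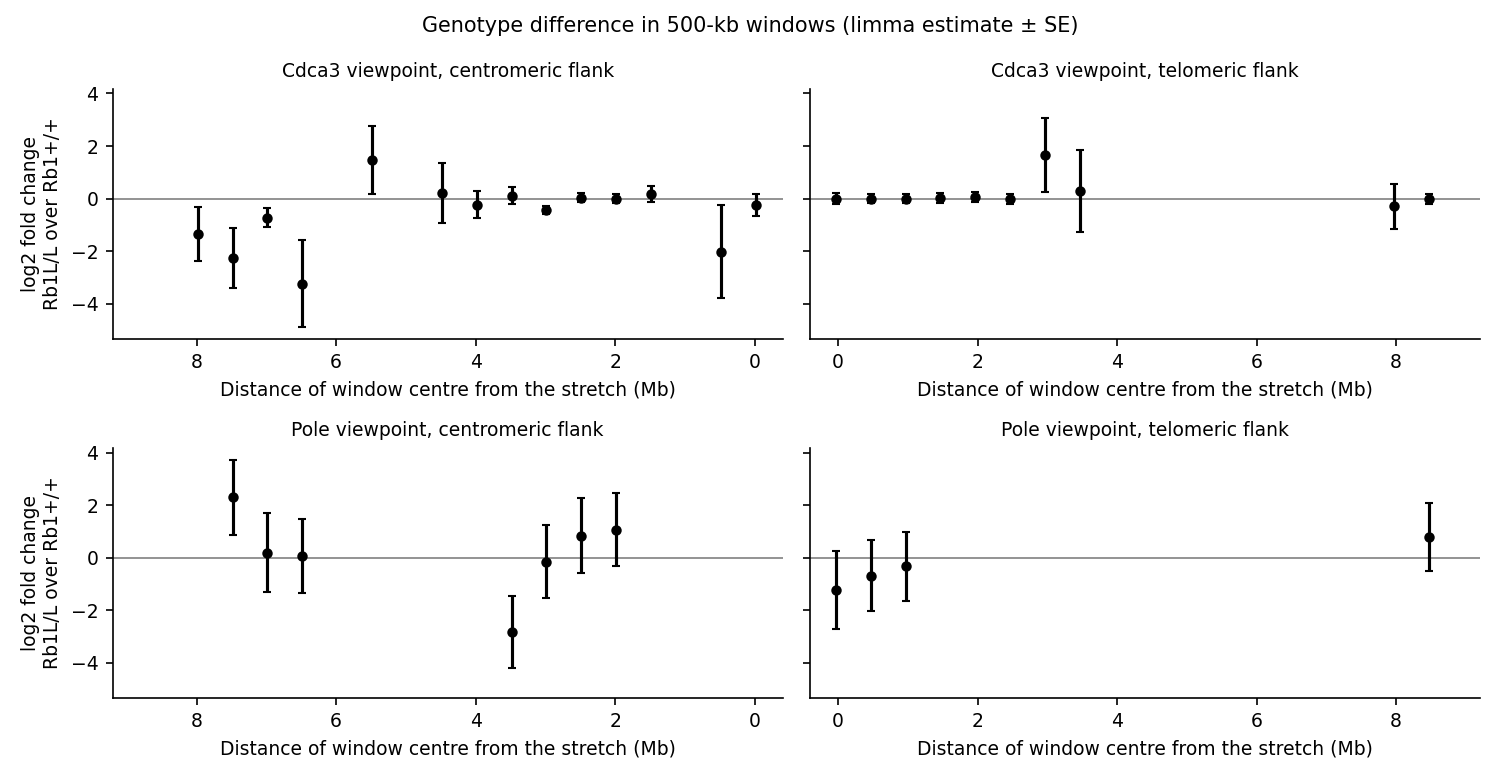
Log2 fold change of Rb1L/L over Rb1+/+ in 500-kb windows (limma estimate, bars ± SE) against the distance of the window's centre from the stretch in Mb, for windows with at least 8 sites over 8 libraries. Dense telomeric Cdca3 windows lie close to 0 with short bars, and sparse windows reach beyond 2 in either direction with long bars. No window passed the test.

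Seen from Pole, in trans, the flanks were sparse and the genotypes overlapped. The Rb1L/L libraries listed 0, 60, 85 and 84 flank sites, against 0, 62, 98 and 41 in Rb1+/+ libraries. Both libraries of replicate 1 list none, and they are the 2 shortest lists of the series, with 6485 and 7925 sites. The means were 57.3 ± 39.9 and 50.3 ± 40.9 (SD, n = 4 each), a difference of 7 sites (exact permutation p = 0.8286, 95% interval -98.0 to 85.0). The flank share of chromosome 6 sites was 10.7% ± 8.06 and 11.1% ± 8.89 (exact permutation p = 1). The genotype difference in this share did not differ detectably between viewpoints (Cdca3 minus Pole -1.04 points, exact permutation p = 0.857).

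Cdca3 libraries placed more of their chromosome 6 sites in the flanks than Pole libraries of the same cultures. The shares were 19.97% ± 2.06 and 10.9% ± 7.86 (SD, n = 8 cultures), a difference of 9.03 points (95% interval 2.03 to 17.0, exact sign-flip permutation p = 0.0156, adjusted p = 0.0312 over 4 comparisons, higher in 7 of 8 cultures). Called regions covered 51.4% ± 3.35 and 31.4% ± 20.9 of the flanks (difference 19.9 points, exact sign-flip permutation p = 0.0156, adjusted p = 0.0312, 7 of 8). Both comparisons leave out the stretch, where no Cdca3 library lists a site by the way it was chosen. Pole libraries list 14 and 9 sites there in Rb1L/L replicates 3 and 4, and 28 in Rb1+/+ replicate 3. Those sites count in the chromosome 6 total but not in the flanks, which lowers the Pole share. The p-values thus depend on how the flanks were drawn, and shares with the stretch counted in were not tested. The differences also lean on the Pole libraries of replicate 1. Without that pair of cultures the differences were 4.55 and 11.0 points (exact p = 0.0625 for both).

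Within the flanks as drawn, the Pole sites also fell on different sides. Of the flank sites, 49.9% ± 3.84 were centromeric in Cdca3 libraries and 85.3% ± 14.4 in Pole libraries of the 6 cultures with Pole flank sites (SD). The difference was -35.4 points, lower in 6 of 6 (exact sign-flip permutation p = 0.0312, the smallest that 6 allow, adjusted p = 0.0417). Leaving out any one of these cultures gave -38.9 to -32.0 points at an exact p of 0.0625, the smallest that 5 allow. Pole libraries listed 0, 60, 84 and 53 centromeric sites in Rb1L/L, against 0, 46, 84 and 37 in Rb1+/+, and 0, 0, 1 and 31 telomeric sites in Rb1L/L, against 0, 16, 14 and 4 in Rb1+/+. Per Mb the centromeric flank held 5.21 ± 3.73 and the telomeric flank 0.969 ± 1.32 sites (SD, n = 8), a difference of 4.24 (exact sign-flip permutation p = 0.0312, adjusted p = 0.0625 over the 2 viewpoints). These comparisons leave out the stretch too. Rb1L/L replicates 3 and 4 list 14 and 9 Pole sites there, and Rb1+/+ replicate 3 lists 28. Called Pole regions of these libraries start inside the stretch, at 124.05, 124.00 and 123.45 Mb, and run into the telomeric flank. These p-values therefore depend on where the flanks begin, and sides with the stretch counted in were not tested. Pole libraries listed no flank site from 127.22 Mb on, although called regions of 5 of them cover the flank's far end. The first telomeric regions of Rb1L/L replicate 4 and of Rb1+/+ replicates 2 and 3 also run past 127.22 Mb.

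Within the flanks, Pole sites lay almost wholly inside the blocks of the Cdca3 lists. The blocks cover 10.4 of 17.3 Mb (60.4%), and 425 of 430 Pole flank sites (98.8%) lie in them, from 95.1% to 100% in each of the 6 libraries. On the rest of chromosome 6, regions called in any Cdca3 library cover 53.6% of the length and hold 94.7% of 2823 Pole sites, so this is not particular to the flanks. By position, 326 of 348 Pole positions (93.7%) were also listed by Cdca3, which is 14.6% of the 2228 Cdca3 positions. These shares by position were not set against the rest of chromosome 6. How many restriction sites or mappable bases lie outside the blocks was not tested, as no mm9 genome was used.

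The Pole sites used the blocks from 118.26 to 121.42 Mb and from 114.57 to 116.42 Mb most, and left the one beside the stretch, from 122.19 to 122.93 Mb, empty in all 8 libraries. The window from 119.5 to 120.0 Mb held 0, 18, 7 and 7 Pole sites in Rb1L/L, against 0, 24, 13 and 3 in Rb1+/+ libraries, and that from 120.0 to 120.5 Mb held 0, 21, 10 and 14 in Rb1L/L, against 0, 8, 18 and 1 in Rb1+/+. Pole lists repeated few positions: 283 of 348 (81.3%) were in 1 library, none was in all 8, and the most recurrent, at 119801881 (mm9), was in 5. On the rest of chromosome 6 82.0% of Pole positions were in 1 library. No position of the flanks was listed in all 16 libraries.

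For the Pole viewpoint limma called 0 of 85 chromosome 6 windows (0% called), 11 of which overlap a flank, with a smallest adjusted p of 0.982. Without adjustment 2 had p under 0.05, and 1 lay in the flanks. Of all 85 windows 1.18% were lower and 1.18% higher at that p. Of the windows that overlap a flank 5 of 11 were lower in Rb1L/L (45.5%), against 48.2% of all 85, and 6 of 11 were higher (54.5%), against 51.8%. The window from 134.0 to 134.5 Mb, one of the higher ones, crosses the flank's end, and its Pole sites all lie beyond it. The window from 125.5 to 126.0 Mb starts inside the stretch. The flank window with an unadjusted p under 0.05, from 119.0 to 119.5 Mb, held 0, 1, 0 and 0 sites in Rb1L/L, against 0, 13, 14 and 3 in Rb1+/+ libraries (log2 fold change -2.82 ± 1.37, SE, limma, adjusted p = 0.982). Higher in Rb1L/L was the window from 115.0 to 115.5 Mb, with 0, 8, 16 and 6 sites in Rb1L/L libraries, against 0, 0, 1 and 1 in Rb1+/+ libraries (log2 fold change 2.31 ± 1.43, SE, limma, adjusted p = 0.982). In Cdca3 libraries that window was lower in Rb1L/L, at a log2 fold change of -2.25, and the difference between the viewpoints was not tested. In windows this sparse the fold change depends on the 0.5 added to each count.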

How the data were processed

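Per the labels' protocols, crosslinked chromatin (1% formaldehyde) was cut with HindIII, ligated, cut with NlaIII and amplified from the viewpoint. For each library the authors deposited a list of sites, each with a value under 0.05, which may be a p-value or a q-value since the file has no header, and a list of called regions without a score. Coordinates are in mm9, per the submitters' processing notes. Aligner and caller: not given in the sources used here.

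Sites were counted per library in Python 3.11.15 (pandas 2.3.3, numpy 2.4.6). Listed starts of the same site differ by a few bases between libraries, so overlapping or touching intervals were merged into positions. Genotypes were compared with exact two-sided permutation tests (70 assignments), and viewpoints and sides by exact sign flips, with 95% intervals by inversion and Benjamini-Hochberg adjustment. Windows of 500 kb with at least 8 sites were fitted over all of chromosome 6 with limma 3.58.1 in R 4.3.3, which was also tested on simulated data. The deposited p-values ranked or filtered sites within a list.

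Named windows are the 3 with the most sites, the 3 with the smallest p in each direction, and those without sites. Members and lists were chosen with earlier results of these data known. The stretch was placed around Cdca3 from general knowledge of the mouse genome. Alternatives covered filters, distances, windows, scaling, left-out libraries and the replicate block.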

Additional observations from a re-analysis of the deposited data

Results flagged for a closer look

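The stretch taken to hold the Cdca3 promoter lies outside the flanks, and no Cdca3 library lists a site there, by the way the stretch was chosen. Pole libraries listed 51 sites in it, 0, 0, 14 and 9 in Rb1L/L and 0, 0, 28 and 0 in Rb1+/+ libraries (replicates 1 to 4). They are flagged as signal outside the flanks, and they count in the chromosome 6 totals used above.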

How the results depend on the processing

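Over 19 results and 243 alternative settings, 183 kept direction and side of the threshold of 0.05. Limma called 0 windows at either viewpoint under all settings run. The near share of Cdca3 flank sites, Rb1L/L minus Rb1+/+, lost its unadjusted p in the inner 5 Mb (0.752 points), with near as 2 Mb (2.87), at equal list length (3.24) and when any Rb1L/L library was left out (exact p = 0.0571), and ran from 4.20 to 6.58 over left-out libraries. For sites under a deposited value of 0.01, the Pole genotype differences turned to 0.0843 points (flank share), -22.7 (centromeric share) and 3.59 (near share). In the inner 5 Mb they turned to -4.75 sites and -5.22 points of coverage, and at equal list length to -11.5 sites and -33.3 points of centromeric share. Over left-out libraries they ran from -9.75 to 26.1 sites, -4.11 to 3.18 (flank share), -2.42 to 16.0 (centromeric share), -30.0 to 6.59 (near share) and -7.01 to 13.9 (coverage), and Cdca3 coverage from -2.86 to 0.234. For Cdca3 minus Pole, the centromeric share lost its call at deposited values under 0.01 (-35.4), in the inner 5 Mb (-30.3), at equal length (-59.1) and over left-out libraries (-38.9 to -32.0). With 5 cultures the exact test cannot pass. The near share differed by 15.1 points in the main setting (exact sign-flip permutation p = 0.3125, higher in 3 of 6 cultures). It passed unadjusted in opposite directions, at -2.17 in the inner 5 Mb and at 23.7 with near as 2 Mb (exact sign-flip permutation p = 0.0312 for both). Without both cultures of pair 1 the flank share (4.55) and coverage (11.0) lost theirs. The centromeric minus telomeric density of Cdca3 passed under 0.01 (-26.5), in the inner 5 Mb (-25.2), at equal length (-54.3) and without Rb1+/+ replicate 3 (range -10.2 to -3.28), and that of Pole was lost under 0.01 (2.02), in the inner 5 Mb (4.08), at equal length (1.31) and over 6 left-out libraries (3.49 to 4.85). The genotype difference between viewpoints turned to 2.05 in the inner 5 Mb and 7.50 at equal length, from -5.98 to 2.98 over left-out libraries. Equal list length and leaving out pair 1 were chosen after seeing the data. Except where a setting leaves fewer samples, the cause was not tested.

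The main genotype tests did not pair the samples by number, because the labels do not say what a pair shares. Same-numbered libraries did not deviate together in every pair (correlation of window deviations -0.105 to 0.291 at Cdca3, -0.0307 to 0.148 at Pole). Their correlation was above the highest other one for pair 1 at Cdca3 and for pairs 1 and 3 at Pole. With the replicate block the near share difference stayed 5.46 points at an exact p of 0.125, the smallest that 4 pairs allow, and no other call changed. Window counts at an unadjusted p under 0.05 moved to 9 at Cdca3 and 4 at Pole, against 4 and 2 without it. Depth is unknown, and sparse windows and Pole lists limit what could be detected.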
